A study of Mus musculus with 4 samples.

Results

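Neat1, Malat1, Kcnq1ot1, Trp53cor1, Pvt1, Mir17hg and Mir22hg are long non-coding RNA genes, chosen by name as RNAs that stay in the nucleus, are linked to p53 or carry microRNAs. Of these 7 genes, 6 were in the table of 20065 genes and all 6 passed the filter on low values, which 16212 genes passed in all. Kcnq1ot1 was not analysed here. The values came from RNA-seq of cultured satellite cells (MuSC), the stem cells of skeletal muscle, taken from limb and trunk muscles of adult C57BL/6 mice. The 2 Prmt5sKO libraries came from Pax7CreERT2/Prmt5loxP/loxP cells, in which the protein arginine methyltransferase Prmt5 can be deleted, and the 2 control libraries from Pax7CreERT2/Prmt5+/loxP cells, which also carry the Cre driver and a single floxed allele. Cells of both genotypes were treated with hydroxytamoxifen, the active form of tamoxifen, which the paper describes as given in culture to delete Prmt5. Deletion is limited to cells that have made Cre from the Pax7 promoter. No source used here says that the libraries of a group came from separate animals, so the p-values measure only the spread between these libraries. Xist, the RNA of the inactive X chromosome, was high in 1 library of each group and near 0 in the other, and the cause of this difference within groups was not tested.

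Long non-coding RNAs are transcripts that are not translated, and several of them act where they are made. Neat1 RNA is the scaffold of paraspeckles, nuclear bodies that hold RNA-binding proteins, and Malat1 RNA collects in nuclear speckles, where splicing factors are stored. Trp53cor1, also called lincRNA-p21, is a transcriptional target of p53 that lies beside the cell cycle inhibitor gene Cdkn1a, and Pvt1 lies beside the oncogene Myc. Mir17hg and Mir22hg are host transcripts, from which the microRNAs of the miR-17-92 cluster and miR-22 are cut. Kcnq1ot1 is an imprinted antisense transcript of the Kcnq1 domain.

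The libraries are named here by depth within their group, because the deposited columns are group means and carry no replicate numbers. The counts summed to 14436914 and 13240754 in the control libraries and to 20047430 and 16190414 in the Prmt5sKO libraries. A normalized count is the read count of a gene after TMM scaling of the libraries to a common size. Prmt5 itself was at 2273 and 2906 normalized counts in control and at 244 and 202 in Prmt5sKO. The shallower Prmt5sKO library stood apart, since 8 genes of differentiating muscle summed to 236248 normalized counts there, against 16933 in the deeper one and 10402 and 6203 in the controls. Satellite cell and myoblast markers were present in every library, with Pax7 between 2570 and 3664 normalized counts and Myod1 between 12153 and 15548. Genes of endothelial cells, blood, fibroblasts and glia summed to at most 391 normalized counts for any of these cell types in any library, and the highest single gene among them was Col1a1 at 328. Gm42418, Gm26917 and Gm15564, genes known for collecting ribosomal RNA reads, took 4.87% and 12.6% of the reads in control and 1.21% and 1.97% in Prmt5sKO, and their part in the results was not tested.

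On the GRCm38 genome, Neat1 (ENSMUSG00000092274, chr19:5824708-5845478) and Malat1 (ENSMUSG00000092341, chr19:5795690-5802672) lie on the minus strand with 22035 bases between them. Each gene is a single block of exon sequence, of 20771 bases in Neat1 and 6983 bases in Malat1, and has no intron in the merged annotation. Both long transcripts end in a U-rich and A-rich stretch that folds into a triple helix, followed by a transfer-RNA-like tail that RNase P cuts off. These ends are shown because the neighbouring genes share them. Malat1 is given at chr19:5795928-5796070 and Neat1, with the short RNA gene Gm27702 that directly follows it, at chr19:5824655-5824802, both on the minus strand and read 5′ to 3′, with capitals for bases identical in the alignment of the pair.
Malat1: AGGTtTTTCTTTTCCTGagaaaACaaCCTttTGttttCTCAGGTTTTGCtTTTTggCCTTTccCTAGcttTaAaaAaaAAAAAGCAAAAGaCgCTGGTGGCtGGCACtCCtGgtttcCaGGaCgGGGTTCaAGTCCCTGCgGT
Neat1 and Gm27702: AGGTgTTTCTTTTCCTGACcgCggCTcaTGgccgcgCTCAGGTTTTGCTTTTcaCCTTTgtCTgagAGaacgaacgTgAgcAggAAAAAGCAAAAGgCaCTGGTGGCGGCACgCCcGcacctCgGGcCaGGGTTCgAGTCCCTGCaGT
The pair had 101 identical positions among 155 alignment columns (65.2%). The longest unbroken runs were 3 of 12 bases each, TTTCTTTTCCTG and CTCAGGTTTTGC in the U-rich part and AAAAAGCAAAAG in the A-rich part. Gm27702, which holds the last 53 bases of the Neat1 sequence shown, had 0 reads in both control libraries and 4 and 2 reads in the Prmt5sKO libraries, too few for a comparison.

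Mir17hg (ENSMUSG00000089726, chr14:115042879-115046727, plus strand) and Mir22hg (ENSMUSG00000085148, chr11:75461539-75466676, plus strand) were measured as host transcripts, and the mature microRNAs were not. The mature RNAs that lie inside them, as RefSeq gives them for GRCm38.p6, show what these transcripts carry. Capitals mark the seed, bases 2 to 8, which pairs with target mRNAs. In Mir17hg, miR-17-5p and miR-20a-5p have the same seed, as do miR-19a-3p and miR-19b-3p, while miR-18a-5p and miR-92a-3p have seeds of their own.
miR-17-5p: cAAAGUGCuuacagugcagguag
miR-20a-5p: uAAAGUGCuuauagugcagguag
miR-18a-5p: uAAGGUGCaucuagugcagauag
miR-19a-3p: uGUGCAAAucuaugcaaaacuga
miR-19b-3p: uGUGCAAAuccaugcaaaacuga
miR-92a-3p: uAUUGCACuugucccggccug
In Mir22hg, the only mature RNA shown, miR-22-3p (chr11:75463772-75463793), has a seed that none of the others has.
miR-22-3p: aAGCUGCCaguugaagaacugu

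No gene of the table passed the test between Prmt5sKO and control (limma-voom with Benjamini-Hochberg adjustment, with thresholds of 0.05 for the adjusted p and of 2 for the fold change), so 0% of genes were called and 0 of the 6 long non-coding RNAs were. At an unadjusted limma-voom p under 0.05 there were 2101 genes, and the smallest adjusted p of any gene was 0.193. Prmt5 itself was thus not called either, so the absence of calls does not show that levels were equal. The paper, testing with DESeq2 at these thresholds for adjusted p and fold change, did report changed genes. For Mir17hg and Neat1, each Prmt5sKO library lay below each control. For Trp53cor1, Malat1 and Mir22hg each lay above, and the groups overlapped for Pvt1. Over all tested genes, the groups did not overlap with Prmt5sKO higher for 25.2% and with Prmt5sKO lower for 23.6%, so 3 and 2 of 6 genes are to be read against those shares. An unadjusted p under 0.05 was reached by 2 of the 6 with a lower level in Prmt5sKO (background 6.95% of genes) and by 0 with a higher level (background 6.01%). The median log2 fold change of the 6 was 0.20, beside 0.02 over all tested genes and -0.23 over the 1207 tested genes of long non-coding biotypes. The last value was -0.47 without the deeper and -0.05 without the shallower control library.

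**Figure D1:**
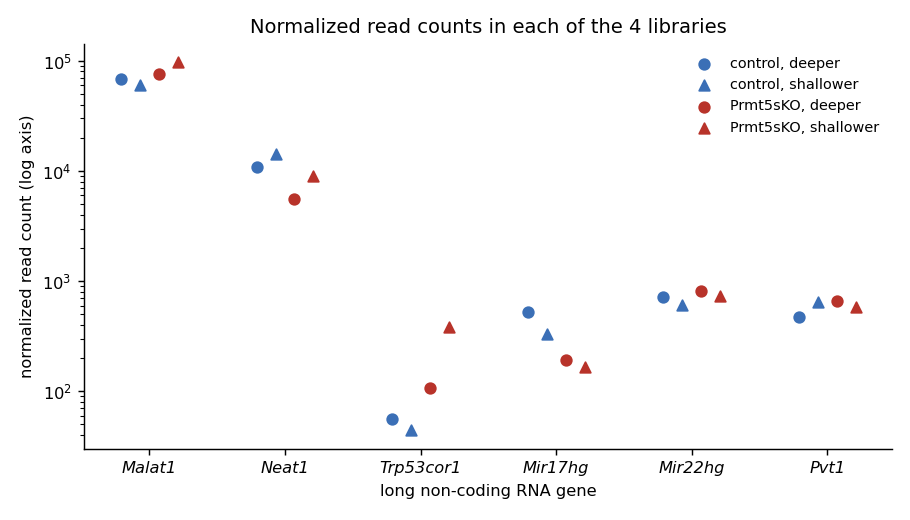
Normalized read counts (log axis) of the 6 long non-coding RNA genes in the 4 libraries, blue for control and red for Prmt5sKO, with circles for the deeper and triangles for the shallower library of each group. Trp53cor1 is the least abundant and Malat1 the most abundant of the 6, and the Prmt5sKO libraries lie below both controls for Neat1 and Mir17hg and overlap them for Pvt1.

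Malat1 was by far the most abundant of the 6 RNAs, and Neat1 the next. Malat1 was at 67960 and 60809 normalized counts in control and at 76483 and 96672 in Prmt5sKO. The groups did not overlap, and the shallower Prmt5sKO library was the highest. The means were 64385 ± 5057 in control and 86577 ± 14276 in Prmt5sKO (SD, n = 2 each). The log2 fold change was 0.42 with a standard error of 0.25, a 95% interval from -0.18 to 1.03 and an adjusted p of 0.489 (limma-voom), so no difference was resolved.

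Neat1 went the other way, with 10950 and 14229 normalized counts in control and 5549 and 8937 in Prmt5sKO. Both Prmt5sKO values lay below both control values, and the deeper Prmt5sKO library was the lowest. The means were 12590 ± 2319 in control and 7243 ± 2395 in Prmt5sKO (SD, n = 2 each). The log2 fold change was -0.82 with a standard error of 0.30 and a 95% interval from -1.55 to -0.09, which left out 0, but the adjusted p was 0.349 (limma-voom). Without the deeper Prmt5sKO library the log2 fold change of Neat1 was -0.48, and without the shallower it was -1.17.

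Within a library, the levels of the pair can be set against each other with no scaling between libraries. Per exonic kilobase, Malat1 was at 18.5 and 12.7 times the level of Neat1 in the control libraries and at 41.0 and 32.2 times in the Prmt5sKO libraries. Since Malat1 was higher and Neat1 lower in each Prmt5sKO library, these ratios had to differ in this direction and are a description. For any single value, 2 libraries against 2 cannot give an exact permutation p below 0.3333. Per exonic kilobase, Malat1 ranked 5 and Neat1 ranked 10 among the tested genes of long non-coding biotypes.

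The mRNAs for proteins that share the nuclear bodies of these RNAs were read as lists, and none was called. Of 13 genes for paraspeckle proteins, 9 lay below both controls in each Prmt5sKO library (all genes 23.6%) and 0 lay above (all genes 25.2%). An unadjusted p under 0.05 (limma-voom) was reached by 4 of them, all lower (all genes 6.95%). The list median log2 fold change was -0.50, and it was -0.30 without the deeper and -0.32 without the shallower Prmt5sKO library. Dazap1, an RNA-binding protein, was at 2549 and 2028 normalized counts in control and at 1354 and 1407 in Prmt5sKO. Rbm14, needed to build paraspeckles, was at 886 and 1000 in control and at 595 and 565 in Prmt5sKO. Of the core proteins that bind Neat1 along its length, Sfpq had a log2 fold change of -0.52 with groups that did not overlap, while Nono was at -0.05 and its groups overlapped. Pspc1, also of the list, was at -0.62 with groups that did not overlap. Of 9 genes for nuclear speckle proteins and for the enzymes that cut the transfer-RNA-like tail, 5 lay below both controls in each Prmt5sKO library and 0 above (median -0.38, and -0.23 without the shallower Prmt5sKO library). Srrm2, a scaffold of nuclear speckles, had a log2 fold change of -0.92, and Srsf2, a splicing factor, of -0.86. Rpph1, the RNA of RNase P, ranged from 19167 to 51821 normalized counts with groups that overlapped.

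Trp53cor1 (ENSMUSG00000085912, chr17:29057430-29079179, minus strand, 3732 exonic bases in 5 blocks) had the largest fold change of the 6 and the lowest level. It had 49 and 34 reads in the control libraries and 145 and 381 reads in the Prmt5sKO libraries, or 55.4 and 44.1 against 107 and 383 normalized counts. On the opposite strand, AC167363.1 overlaps 1645 exonic bases of Trp53cor1 and Gm27599 overlaps 174, and neither was analysed here. The strand setting of the counting is not given in the sources used here, so reads there could come from either strand. Both Prmt5sKO libraries lay above both controls, but they differed from each other 3.57-fold, while the controls differed 1.26-fold. The means were 49.7 ± 7.98 in control and 245 ± 195 in Prmt5sKO (SD, n = 2 each). The log2 fold change was 1.92 with a standard error of 0.88, a 95% interval from -0.23 to 4.08 and an adjusted p of 0.411 (limma-voom). Without the deeper Prmt5sKO library it was 2.93 with an adjusted p of 0.0202, the only setting in which any of the 6 RNAs was called. The Prmt5sKO arm is then 1 library, assumed to vary like the controls, so this call holds no replicate check in Prmt5sKO. Without the shallower it was 1.10 with an adjusted p of 0.369. The library with the highest Trp53cor1 was the library with the high muscle genes: Myog, the regulator of muscle differentiation, was at 1436 and 1189 normalized counts in control, and at 3707 (deeper) and 19508 (shallower) in Prmt5sKO. All 8 genes of that list were higher in both Prmt5sKO libraries (all genes 25.2%). The list median was 2.93, which became 1.09 when the shallower library was left out and 5.12 when the deeper was, and their part in the result was not tested. Fewer cells of a type and less RNA per cell cannot be told apart in such bulk libraries.

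The neighbour and p53 target Cdkn1a, which encodes the cell cycle inhibitor p21 and lies 11796 bases from Trp53cor1, was higher in Prmt5sKO as well. It was at 3379 and 2057 normalized counts in control and at 8358 and 15703 in Prmt5sKO, a log2 fold change of 2.13 with an adjusted p of 0.214. The shallower Prmt5sKO library was again the highest. Of the other tested genes within 100 kb of Trp53cor1, Srsf3, Stk38 and Kctd20 had log2 fold changes of -0.09, 0.03 and -0.01 with groups that overlapped. Rab44, a small GTPase, had 0 reads in both controls and 25 and 60 reads in the Prmt5sKO libraries.

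Across the p53 pathway, 23 of 30 genes were higher in both Prmt5sKO libraries (all genes 25.2%) and 2 were lower (all genes 23.6%). Their median log2 fold change was 0.80, and 15 had an unadjusted p under 0.05 (limma-voom), all higher (all genes 6.01%). Without the shallower Prmt5sKO library 24 were higher and 2 lower, beside 38.9% and 36.1% of all genes, since a single library overlaps less often. Mdm2, the ubiquitin ligase that limits p53, was at 3457 and 2080 normalized counts in control and at 10628 and 6640 in Prmt5sKO. Trp53inp1, a stress-induced cofactor of p53, was at 792 and 300 in control and at 3499 and 2209 in Prmt5sKO. For both genes the deeper Prmt5sKO library was the higher, unlike Trp53cor1. The mRNA of p53 itself, Trp53, was at 3612 and 3146 in control and at 4159 and 2901 in Prmt5sKO, and Hnrnpk, which encodes a protein partner of Trp53cor1, had a log2 fold change of -0.15; the groups overlapped for both.

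**Figure D2:**
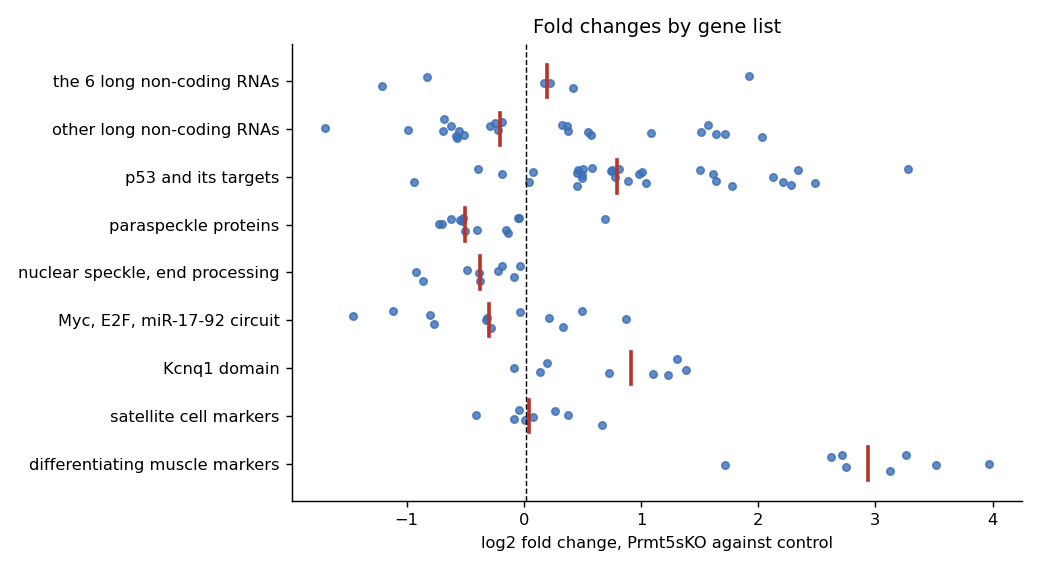
Log2 fold change of each tested gene (points) by gene list, with the list median as a red bar and the median of all tested genes as a dashed line. The genes of p53 and its targets centre on 0.80 and those of differentiating muscle on 2.93, while the paraspeckle proteins centre on -0.50; without the shallower Prmt5sKO library the muscle median is 1.09.

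Mir17hg had the lowest fold change of the 6. It was at 520 and 332 normalized counts in control and at 193 and 167 in Prmt5sKO. Both Prmt5sKO values were below both controls, and the controls differed from each other 1.57-fold. The means were 426 ± 133 in control and 180 ± 18.2 in Prmt5sKO (SD, n = 2 each). The log2 fold change was -1.21 with a standard error of 0.34, a 95% interval from -2.04 to -0.39 and an adjusted p of 0.282 (limma-voom). It stayed between -1.52 and -0.89 when any single library was left out.

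Mir22hg, the other host transcript, was at 722 and 607 normalized counts in control and at 814 and 732 in Prmt5sKO. The groups did not overlap, but the higher control and the lower Prmt5sKO library were only 722 and 732. The means were 665 ± 81.4 in control and 773 ± 57.5 in Prmt5sKO (SD, n = 2 each). The log2 fold change was 0.22 with a standard error of 0.22 and an adjusted p of 0.685 (limma-voom). Within a library, Mir22hg was at 2.55 and 3.36 times the level of Mir17hg per exonic kilobase in control and at 7.76 and 8.06 times in Prmt5sKO. The direction of these ratios also follows from the levels of the hosts given above. Mir22hg shares 206 exonic bases with Tlcd2 on the same strand, and reads there could belong to either gene; Tlcd2 had a log2 fold change of 0.56.

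The genes that act with the miR-17-92 cluster varied in direction. Of 12 genes of the Myc, E2F and miR-17-92 circuit, none was called. In each Prmt5sKO library, 6 lay below both controls (all genes 23.6%) and 3 above (all genes 25.2%). The list median log2 fold change was -0.29, and it lay between -0.45 and -0.14 when any single library was left out. E2f1, which encodes a cell cycle transcription factor that activates Mir17hg and is a target of its microRNAs, was at 946 and 1036 normalized counts in control and at 280 and 483 in Prmt5sKO. Dgcr8, the partner of the enzyme Drosha that cuts microRNAs from their hosts, was at 1280 and 1807 in control and at 743 and 659 in Prmt5sKO. Drosha and Dicer1 had log2 fold changes of -0.28 and -0.32. Of the cluster's known targets, Rbl2, a pocket protein of the retinoblastoma family, was at 319 and 254 in control and at 581 and 470 in Prmt5sKO, and Bcl2l11 had a log2 fold change of -0.03 with groups that overlapped.

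Pvt1 (ENSMUSG00000097039, chr15:62037986-62378096, plus strand, 6996 exonic bases in 21 blocks) was at 474 and 651 normalized counts in control and at 665 and 582 in Prmt5sKO. The groups overlapped, and the deeper control library was the lowest. The means were 562 ± 126 in control and 623 ± 58.2 in Prmt5sKO (SD, n = 2 each). The log2 fold change was 0.18 with a standard error of 0.26 and an adjusted p of 0.783 (limma-voom), and it was -0.075 without the deeper control library. Myc, 47611 bases away, was at 2040 and 2438 in control and at 1884 and 908 in Prmt5sKO. The controls did not overlap with Prmt5sKO for Myc, and the shallower Prmt5sKO library was the lowest (log2 fold change -0.76, adjusted p of 0.423).

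**Figure D3:**
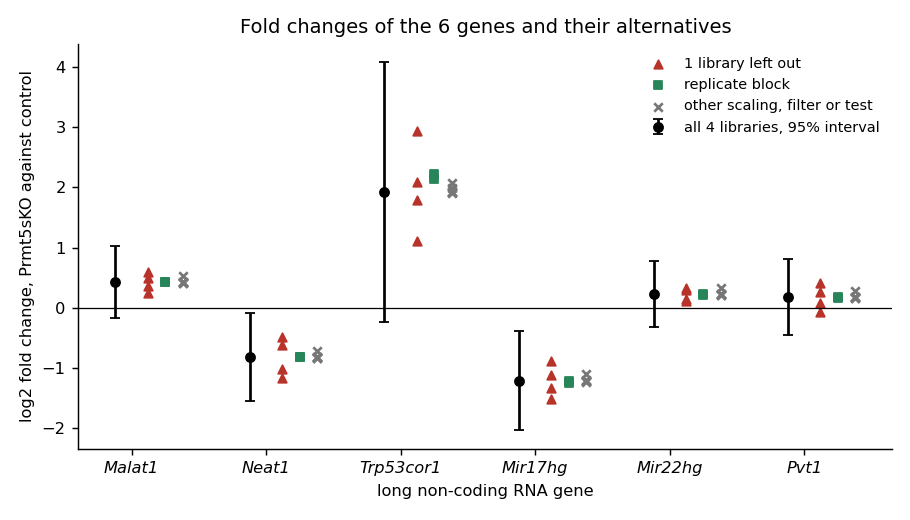
Log2 fold change of each of the 6 genes with its 95% interval (black), and the values with 1 library left out (triangles), with a replicate block (squares) or with another scaling, filter or test (crosses). The interval is widest for Trp53cor1, and Pvt1 is the only gene with a value on the other side of 0.

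Genes near the other RNAs were read in the same way, within 100 kb of their ends. Around Neat1 and Malat1 the median log2 fold change of 11 neighbours was 0.02 and 0.00. Frmd8, the nearest protein-coding gene to Neat1 at 4223 bases, was at 1468 and 1041 normalized counts in control and at 2101 and 1485 in Prmt5sKO. Pola2, a subunit of DNA polymerase alpha 95063 bases from Neat1, was at 1173 and 1315 in control and at 579 and 540 in Prmt5sKO. Around Mir22hg the median of 11 neighbours was 0.13, and Slc43a2, an amino acid transporter 65017 bases away, was at 407 and 254 in control and at 1706 and 1228 in Prmt5sKO (log2 fold change 2.15, adjusted p of 0.203).

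**Figure D4:**
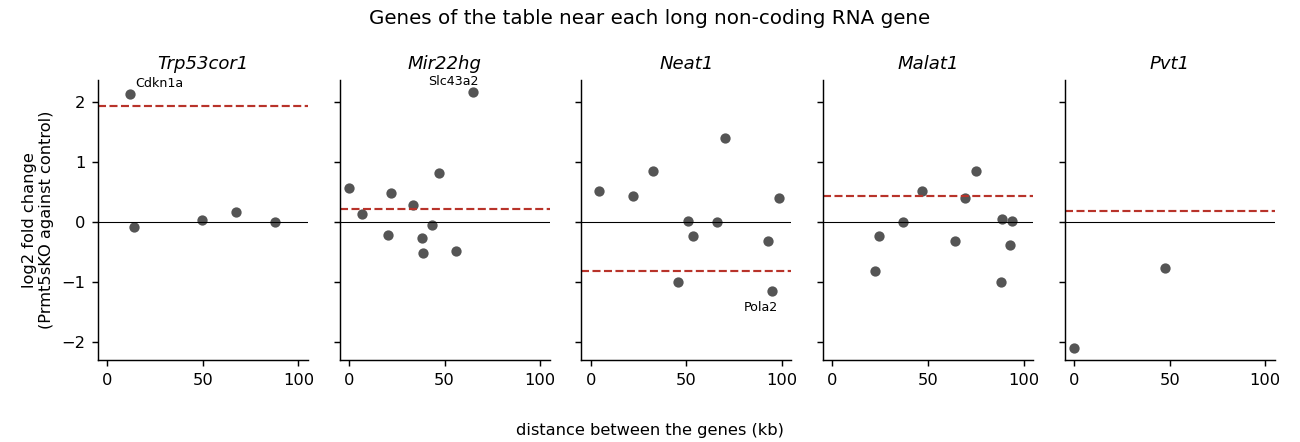
Log2 fold change of tested genes within 100 kb of 5 of the long non-coding RNA genes against the distance between the genes (kb), with the fold change of the RNA itself as a dashed red line; a gene with no reads in a group is left out, and genes with an unadjusted p under 0.01 are named. Neighbours lie on both sides of 0, except near Pvt1, where the only 2 tested neighbours lie below 0. These are Myc and Gm27782, a short RNA gene inside Pvt1 with at most 37 reads in any library. Cdkn1a lies beside the line of Trp53cor1.

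The Kcnq1 domain on chromosome 7 was read through its protein-coding genes. Of 8 tested genes, none was called. In each Prmt5sKO library, 4 lay above both controls (all genes 25.2%) and 1 below (all genes 23.6%). Of the 4 above, Kcnq1 and Trpm5 had few reads, at most 38 and 40 in any library. The median log2 fold change of the list was 0.92, and 0.30 without the shallower Prmt5sKO library. It lies between Trpm5 at 0.73 and Tspan32 at 1.10, and Tspan32 had at most 23 reads in any library. Among the genes with the most reads, Cd81 was at 1.23, Osbpl5 at 0.20, Tssc4 at 0.14 and Nap1l4 at -0.08. Cd81, a membrane tetraspanin, was at 4293 and 2670 normalized counts in control and at 8713 and 7253 in Prmt5sKO. Cdkn1c, the imprinted cell cycle inhibitor p57, was at 45.2 and 41.5 in control and at 41.5 (deeper) but 362 (shallower) in Prmt5sKO, the latter in the library with the high muscle genes. Kcnq1, the potassium channel gene that Kcnq1ot1 runs through, had 7 and 10 reads in control and 28 and 38 in Prmt5sKO. Gm27395, a short RNA gene inside the Kcnq1ot1 interval (chr7:143203458-143296549), had 25 and 33 reads in control and 9 and 11 in Prmt5sKO. Of 3 other such short RNA genes in this interval, Gm27389 had 10 and 38 reads in control and 9 and 4 in Prmt5sKO, while the groups overlapped for Gm27803 (1 and 11 against 9 and 3) and Gm27539 (4 and 31 against 35 and 9). These genes lie on the strand opposite to Kcnq1ot1, and the strand setting of the counting is not given in the sources used here.

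Of the 10837 protein-coding genes with a mean of at least 50 normalized counts, the genes with a profile most like each RNA over the 4 libraries were named by the distance between centred log2 values. Dync1i1, a dynein subunit, and Dmd, the dystrophin gene, lay nearest to Trp53cor1 at 0.07 and 0.10, and Dmd was at 193 and 170 normalized counts in control and at 392 and 1381 in Prmt5sKO. Ptms and Mad2l2 lay nearest to Neat1, Hagh and Fam3a to Malat1, Fmn1 and Apln to Mir17hg, Acsf2 and Ifnar1 to Mir22hg, and Noc3l and Mtf1 to Pvt1. These distances rest on 4 libraries and are given as a description.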

How the data were processed

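RNA-seq (Ion Torrent Proton, ribosomal RNA depleted) was read for 2 control and 2 Prmt5sKO libraries. The authors trimmed reads with Reaper, aligned them with STAR (2.4.0a, per the submitters' processing notes) to mm10 and tested with DESeq2 (1.62). As signal values, the authors deposited the mean per group of counts divided by size factors. The deposited columns of the authors' own fold changes, standard errors and p-values were not used. Each group mean is a sum of whole reads of 2 libraries in steps of different size, which returned a single pair of read counts for 100% of 20065 genes (largest relative residual 5.2e-15). These were tested with limma-voom (limma 3.58.1, run in R 4.3.3) after TMM scaling by own code and checked on simulated data. Benjamini-Hochberg adjustment ran over the 16212 genes whose normalized counts averaged 5 or more. A normalized count is a count divided by the library's relative effective size; levels per exonic kilobase use GENCODE M21 union exons.

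The 7 genes and all gene lists were chosen with earlier results of these data known. Named genes were the 7 themselves, genes within 100 kb of them, the 2 nearest profiles of each and examples from the lists. Alternatives were 3 other scalings, 2 other filters, limma-trend, each library left out and both replicate blocks.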

Additional observations from a re-analysis of the deposited data

How the results depend on the processing

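Of 72 single values of the 6 RNAs under alternatives, 70 kept their direction and their side of the threshold. The exceptions were Trp53cor1, called without the deeper Prmt5sKO library (log2 fold change 2.93), and Pvt1, at -0.075 without the deeper control library. The count of genes called was 0 with all 4 libraries under every scaling, filter and test tried, and ranged from 0 to 489 when a library was left out, with 489 without the deeper and 55 without the shallower Prmt5sKO library. The count among the 6 RNAs ranged from 0 to 1, and their median log2 fold change from 0.11 to 0.26. With library size only the median was 0.30, where the median of all genes moved from 0.02 to 0.13. The columns carry no replicate numbers, so a replicate block was fitted for both possible pairings: 0 genes were called with deeper paired with deeper, and 346, with 0 of the 6 RNAs, with deeper paired with shallower, which joins the libraries high in Xist and those low in it. Deviations from the group means correlated at -0.30 over 11487 genes with deeper paired with deeper. The 0.30 of the other pairing is the same value with its sign reversed. The cause of these differences was not tested. Depth was lowest for Trp53cor1 among the 6 RNAs, with 34 reads in its lowest library.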

Other observations

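Of 24 other named long non-coding RNAs that were tested, 9 were higher and 6 lower in both Prmt5sKO libraries (all genes 25.2% and 23.6%). Their median log2 fold change was -0.21, and 0.32 without the deeper control library, and none was called. Meg3, Rian and Mirg of the Dlk1-Dio3 imprinted cluster, named after their values were seen, had adjusted p-values from 0.302 to 0.390 (limma-voom). Meg3 was at 367 and 75.2 normalized counts in control and at 611 and 837 in Prmt5sKO, and Rian was at 623 and 176 in control and at 1011 and 1244 in Prmt5sKO. Mirg had a log2 fold change of 1.64, and the shallower control library was the lowest for all 3 genes. Gas5, the host of several small nucleolar RNAs, was at 3094 in both control libraries and at 2073 and 1775 in the Prmt5sKO libraries.

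H19, the most abundant imprinted RNA of the list, ranged from 53478 to 177080 normalized counts with groups that overlapped, and was highest in the shallower Prmt5sKO library. Xist, the RNA that coats the inactive X chromosome, was at 8668 (deeper) and 23.3 (shallower) in control and at 8.15 (deeper) and 5655 (shallower) in Prmt5sKO. Among all 1207 tested genes of long non-coding biotypes, 39 were lower and 14 higher in Prmt5sKO at an unadjusted p under 0.05 (limma-voom). As shares of the 1207, both counts lie below those over all tested genes, which were 6.95% lower and 6.01% higher. By overlap of the groups, 25.9% of the 1207 were lower (all genes 23.6%) and 18.1% higher (all genes 25.2%) in both Prmt5sKO libraries.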
